A study of Homo sapiens with 2 samples.

Results

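The family of DEAD-box and DEAH-box RNA helicase genes was defined here by symbol alone, as genes whose symbols begin with DDX or DHX and a number. Relatives with other names, such as EIF4A1 and EIF4A2, are not counted in it and are described apart. Of the 12353 genes with a value in the deposited table, 49 carried such a symbol, 33 of them DDX and 16 DHX genes. All 49 are protein-coding. A further gene with such a symbol lies on the Y chromosome and was left out. RefSeq lists 53 protein-coding genes with such symbols outside that chromosome. BJ is an established line of human skin fibroblasts, and the cells were untreated, grown with 10% serum, and carry no genetic change that the labels name. Engaged RNA polymerases were mapped with a nuclear run-on and sequencing (GRO-seq): isolated nuclei extend their nascent transcripts for 5 min at 30 °C with a tagged nucleotide, and the tagged RNA is captured and sequenced. The 2 biological replicates form 1 group. Their columns end in a and b and give the names library a and library b. Which letter stands for which replicate number is not stated.

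These helicases couple the binding and hydrolysis of ATP to the opening of short RNA duplexes or to the removal of proteins from RNA. They are named after the residues of a conserved ATPase motif, aspartate-glutamate-alanine-aspartate in DEAD-box enzymes and aspartate-glutamate-alanine-histidine in DEAH-box enzymes. DEAD-box enzymes typically pry a duplex apart where they bind, whereas DEAH-box enzymes move along a strand and often act on large particles such as the spliceosome. Dividing cells such as fibroblasts use them in splicing, ribosome assembly, mRNA export and translation, whereas a few members are restricted to germ cells or serve antiviral defence.

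Values are FPKM, fragments per kilobase of gene scaled to library size by the authors, so levels of different genes are compared per length. No source used here gives the read depth or the gene lengths, so no counting interval can be set. Errors are the SD over the 2 libraries (n = 2), and with 1 group no p-value was computed. Each level is an average over the culture, in which fewer transcribing cells and less transcription per cell cannot be told apart. The fibroblast markers COL1A1, COL1A2, THY1, VIM and PDGFRB were all measured, with mean levels between 30.3 and 649 FPKM, whereas of 7 epithelial, leukocyte and endothelial markers only CDH1 had a value, 1.49 ± 0.0141 FPKM.

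Nearly the whole helicase family was transcribed in BJ cells. A value was present for 49 of the 53 genes (92.5%), against 59.8% of all RefSeq protein-coding genes, and for each of the 16 DHX genes. The table lists no zeros, so it holds only genes above some minimum, and the members described here are those that passed it. The 4 without a value were DDX4, DDX25 and DDX53, which act in germ cells, and DDX52, which acts in ribosome assembly. Identifiers can change between annotation releases, and 151 of those in the table have no current symbol, so these 4 genes are known only to have no value under their current identifiers.

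The helicase genes stood somewhat above the typical gene and spanned a wide range. Their median was 16.2 FPKM, against 11.7 FPKM for all genes, 1.38 times as high. On the scale of log2(FPKM + 0.1) library a gave a difference of medians of 0.44 and library b one of 0.48 (SD 0.0289). By mean level 32 of 49 (65.3%) lay above the median of all genes, which 50% of all genes do by construction. A level above 2 times the median of its library was reached in both libraries by 16 members (32.7%), against 21.7% of all genes, and one above 4 times by 8 members (16.3%), against 7.16%. Those 8 were DDX5, DDX39B, DDX17, DDX39A, DDX3X, DHX15, DHX9 and DDX49, which serve transcription, splicing, export, translation and ribosome assembly. At the other end 4 members (8.16%) lay below 0.5 times the median in both libraries, against 21% of all genes, namely DHX40, DDX43, DDX10 and DDX60. The SD of log2 levels was 1.30 among the helicases and 1.46 among all genes. Annotated spans matter for the top of the list, because no source used here says whether reads were assigned by strand: 9 members overlap another protein-coding gene with a value, and DDX5, DDX39B and DDX17 are among them. Among the 40 members without such an overlap 24 lay above the median of all genes.

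**Figure D1:**
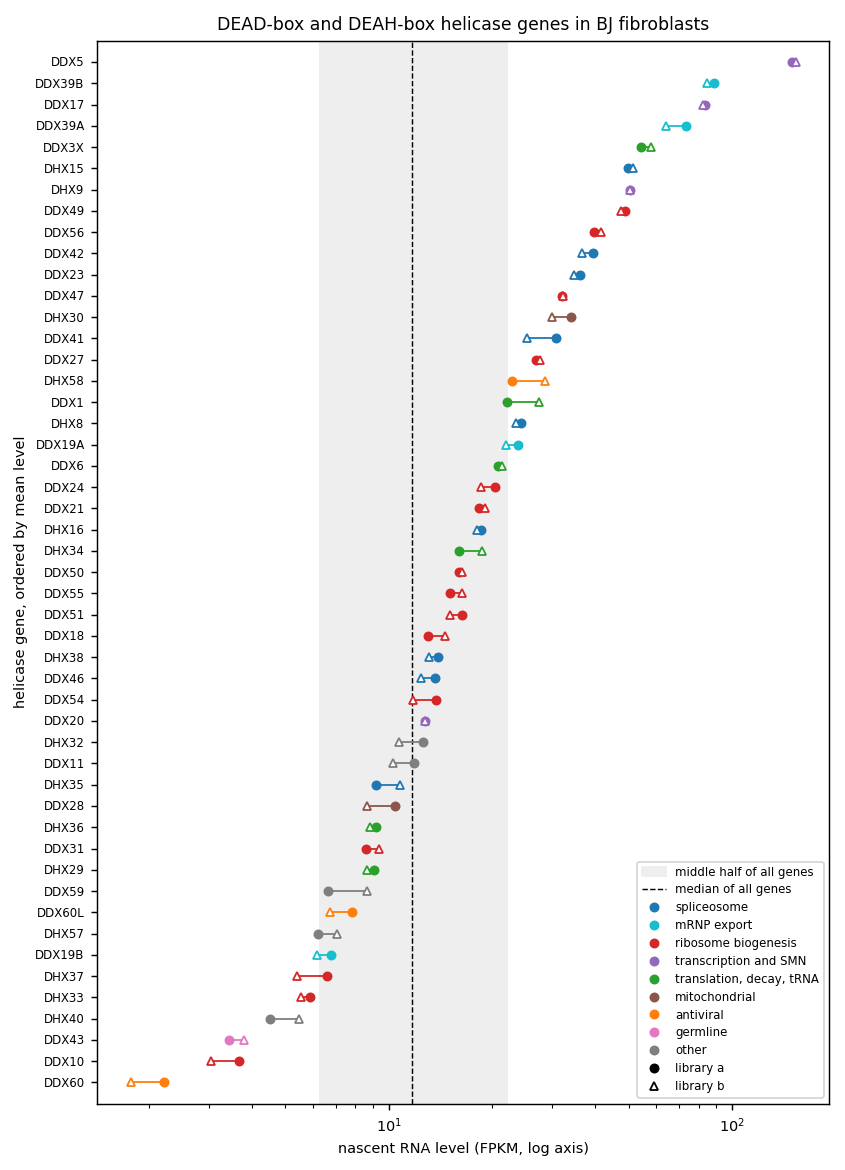
Nascent RNA level of the 49 helicase genes in FPKM on a log axis, ordered by mean, with library a as filled circles and library b as open triangles, coloured by known role. The dashed line is the median of all 12353 genes (11.7 FPKM) and the grey band their middle 50%; DDX5 stands alone at the top near 152 FPKM and DDX60 at the bottom near 2.0 FPKM.

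Gaps between neighbouring levels were more frequent at the top of the order than in the middle. Of the 48 pairs of neighbours in the ranking, the values of 17 did not overlap between the genes and those of 31 did. The 6 highest genes, from DDX5 through DDX39B, DDX17, DDX39A and DDX3X to DHX15, each stood apart from the next, except that DHX15 and DHX9 overlapped. From DDX49 through DDX56, DDX42 and DDX23 to DDX47 every neighbour was again separated. Between DDX47 and DDX19A no neighbours were, although genes farther apart there did not overlap: both values of DHX30 lay above both values of DDX27, DHX58, DDX1 and DHX8. With 2 values a gene, a gap between ranges is a weak criterion, and genes of equal level would also often show one. DDX39B and DDX17, although separated, differed only 1.05-fold, less than the median factor of 1.088 between the libraries. The exact order is therefore not settled, also at the top.

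The role of transcription and the SMN complex had the highest median of the family, led by DDX5, although its 4 genes were far apart and export helicases stood between them. DDX5 and its close paralogue DDX17 act with transcription factors and in splicing and microRNA processing, DHX9 unwinds double-stranded RNA and bridges transcription factors to polymerase, and DDX20 belongs to the SMN complex that assembles spliceosomal particles. DDX5 had 149.7 FPKM in library a and 154 FPKM in library b, 13.0 times the median of all genes and higher than 98.7% of them. DDX17 had 83.3 and 82.3 FPKM, and DHX9 50.3 and 50.4 FPKM. DDX20 stood well below the other three, at 12.73 and 12.74 FPKM, close to the typical gene. The median of the 4 genes was 66.6 FPKM, 5.69 times that of all genes. DDX5 overlaps CEP95, on the opposite strand (65.8 ± 3.36 FPKM), and DDX17 overlaps KDELR3, also on the opposite strand (136 ± 2.98 FPKM). The part of reads from these neighbours in the 2 helicase values was not tested.

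DDX5, the most strongly transcribed member, also carries microRNA genes, and so do DHX30 and DDX54. The mature sequences of all of them are shown. MIR3064 and MIR5047 lie within DDX5 on its strand (RefSeq, GRCh38.p14), MIR1226 lies within DHX30 on its strand, and MIR7106 lies within DDX54 on its strand. Capitals mark the seed, bases 2 to 8.
hsa-miR-3064-5p: uCUGGCUGuuguggugugcaa
hsa-miR-3064-3p: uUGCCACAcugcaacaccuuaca
hsa-miR-5047: uUGCAGCUgcgguuguaaggu
hsa-miR-1226-5p: gUGAGGGCaugcaggccuggaugggg
hsa-miR-1226-3p: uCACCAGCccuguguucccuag
hsa-miR-7106-5p: uGGGAGGAggggaucuuggg
hsa-miR-7106-3p: aGCUCCCUgaaucccugucccag
No seed is shared between them. The levels of the microRNAs themselves were not measured here. Host gene levels were 152 ± 2.94 FPKM for DDX5, 31.9 ± 2.97 FPKM for DHX30 and 12.7 ± 1.36 FPKM for DDX54.

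The export helicases formed a high pair and a split pair. DDX39B and its paralogue DDX39A load the TREX export complex onto spliced mRNA, and DDX19A and DDX19B strip export factors from mRNA at the cytoplasmic face of the nuclear pore. DDX39B had 88.9 FPKM in library a and 84.7 FPKM in library b, the second highest level of the family. DDX39A had 73.6 and 64.3 FPKM, below DDX39B in both libraries. DDX19A stood at 23.8 and 22.0 FPKM and its neighbour in the genome, DDX19B, at 6.81 and 6.16 FPKM, so that 3 of the 4 genes lay above the median of all genes and DDX19B below it. DDX39B overlaps MCCD1 on the opposite strand (49.5 ± 0.389 FPKM) and holds the small nucleolar RNA genes SNORD84 and SNORD117 within its span. Members of each pair are alike in sequence, and since no source used here says how reads with several matches were treated, the split of reads within a pair is uncertain.

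All 9 helicases of the spliceosome were measured and 8 lay above the median of all genes, with DHX35 below it. Their median was 23.9 FPKM, 2.04 times that of all genes. DHX15, which takes the spent spliceosome apart and also acts in ribosome assembly, was highest at 49.8 and 51.3 FPKM. DDX42, a helicase of early spliceosome assembly, had 39.4 and 36.5 FPKM, and DDX23, which helps position the 5′ splice site, 36.0 and 34.7 FPKM. Those 3 genes exceeded every other spliceosomal member in both libraries. DDX41, a gene mutated in inherited myeloid neoplasms, had 30.7 and 25.3 FPKM, a spread of 1.21-fold. DHX8, which releases the spliced mRNA, had 24.4 and 23.5 FPKM, and DHX16, which starts catalysis, 18.5 and 18.1 FPKM. The lower members were DHX38, needed for exon joining (13.9 and 13.1 FPKM), DDX46, which acts at the branch site (13.7 and 12.4 FPKM), and DHX35 (9.18 and 10.8 FPKM). The helicases that drive successive steps of splicing were therefore spread over a 5.06-fold range. DHX8 overlaps ETV4 (18.8 ± 1.21 FPKM), DHX16 overlaps C6orf136 (28.1 ± 2.91 FPKM) and DHX38 overlaps TXNL4B (8.98 ± 0.318 FPKM).

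Helicases of ribosome biogenesis, the largest role, stood nearer the typical gene. Of 16 listed genes 15 had a value and 11 lay above the median of all genes, with a median of 15.7 FPKM, 1.34 times that of all genes. The 3 highest were DDX49 (48.7 and 47.4 FPKM), DDX56 (39.6 and 41.4 FPKM) and DDX47 (32.05 and 32.1 FPKM), nucleolar enzymes of pre-rRNA processing. DDX27, a partner of the large-subunit assembly complex PeBoW, had 26.8 and 27.6 FPKM. DDX24 (19.5 ± 1.27 FPKM), DDX21 (18.7 ± 0.552 FPKM), DDX50 (16.2 ± 0.240 FPKM), DDX55 (15.7 ± 0.940 FPKM) and DDX51 (15.7 ± 0.933 FPKM) made up a middle group, whose neighbours in the ranking overlapped from DDX24 down to DDX51. DDX18 (13.8 ± 1.13 FPKM) and DDX54 were close to the median of all genes. Below it came DDX31 (8.97 ± 0.566 FPKM), DHX37, a helicase of the small-subunit processome (6.02 ± 0.856 FPKM), DHX33 (5.72 ± 0.247 FPKM) and DDX10. DDX10 had 3.67 and 3.04 FPKM, below 89.9% of all genes, so that this role covered a 14.3-fold range between enzymes of the same process. DDX55 overlaps EIF2B1 (17.96 ± 1.62 FPKM) and DDX24 overlaps OTUB2 (13.5 ± 0.552 FPKM).

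The cytoplasmic and mitochondrial helicases were divided in the same way. DDX3X, which helps ribosomes scan structured mRNA leaders, led its role at 54.4 FPKM in library a and 57.9 FPKM in library b. DDX1, part of the tRNA ligase complex, had 22.1 and 27.4 FPKM, and DDX6, which represses and decaps mRNA in P-bodies, 20.8 and 21.5 FPKM. DHX34, a factor of nonsense-mediated decay, had 16.02 and 18.64 FPKM. These 4 lay above the median of all genes, whereas DHX36, which resolves G-quadruplexes (9.20 and 8.79 FPKM), and DHX29, a scanning factor (9.07 and 8.63 FPKM), lay below it and overlapped each other. Of the mitochondrial helicases, DHX30 stood at 34.0 and 29.8 FPKM and DDX28 at 10.4 and 8.64 FPKM, and both serve assembly of the mitochondrial ribosome. The role of the remaining 5 measured genes is less settled or lies elsewhere, and none of them exceeded the median of all genes by mean level. They were DHX32 (11.7 ± 1.34 FPKM), DDX11, a DNA helicase of chromatid cohesion (11.1 ± 1.11 FPKM), DDX59, linked to ciliary signalling (7.65 ± 1.41 FPKM), DHX57 (6.64 ± 0.601 FPKM) and DHX40 (4.99 ± 0.665 FPKM). DDX11 and DHX40 have pseudogene copies and DDX3X has a homologue on the Y chromosome, so their values are uncertain where reads fit both. DHX32 overlaps BCCIP, which had 11.7 ± 0.587 FPKM.

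The antiviral and germline members were mostly low. DDX60, an interferon-induced helicase of the antiviral response, had the lowest level of the family, 2.21 and 1.77 FPKM, below 96.4% of all genes. Its neighbour DDX60L had 7.80 and 6.76 FPKM, also below the median of all genes. DHX58, which encodes the RIG-I-like receptor LGP2, was the exception at 22.9 and 28.5 FPKM, 2.20 times the median. DDX43, a cancer/testis gene, was the only measured member of the 4 germline genes and had 3.43 and 3.79 FPKM. The relatives RIGI (6.92 ± 0.820 FPKM) and IFIH1 (1.75 ± 0.332 FPKM), the RNA sensors that LGP2 modulates, were both below DHX58 in each library.

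**Figure D2:**
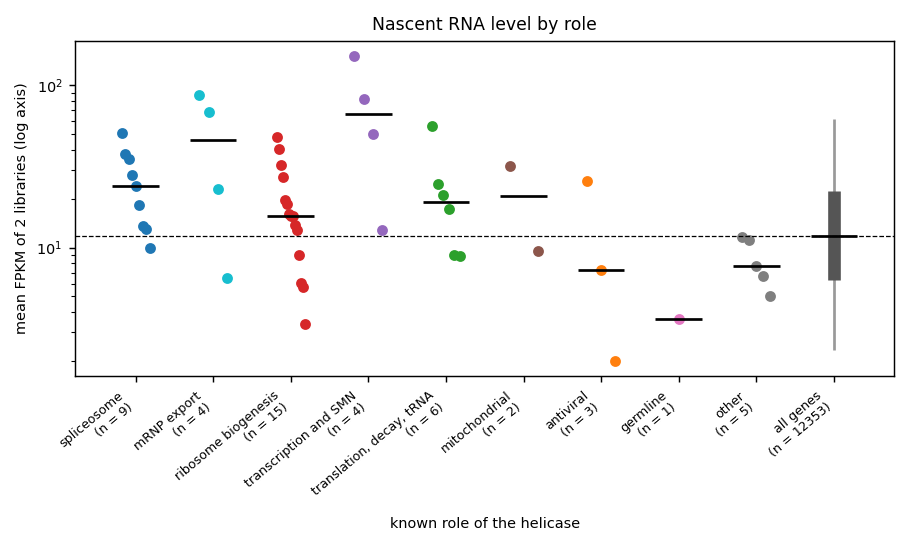
Mean FPKM of the 2 libraries on a log axis for each measured helicase gene (points) by known role, with the median of the role as a black bar; at the right all 12353 genes are shown by median, middle 50% (thick bar) and percentiles 5 to 95 (thin line). The dashed line is the median of all genes (11.7 FPKM); role medians run from 66.6 FPKM for the transcription and SMN genes to 3.61 FPKM for DDX43, the only germline gene measured.

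The roles and classes were then set against each other within each library. The median of DHX genes was 12.6 FPKM, against 18.7 FPKM for DDX genes. Library a gave a log2 ratio of -0.46 and library b one of -0.64 (-0.55 ± 0.126). Of the 16 DHX genes 8 lay above the median of all genes, against 24 of the 33 DDX genes. Ribosome biogenesis helicases lay below spliceosomal helicases, 15.7 FPKM against 23.9 FPKM, with a log2 ratio of -0.60 in library a and -0.52 in library b (-0.56 ± 0.0596). Both differences exceeded their spread between libraries, but the ranges of the genes overlapped widely in each case.

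Paralogues were compared in the same way, and in each of the 7 pairs with values for both genes the sign was the same in both libraries. The ranks of all 12353 genes were also close between the libraries (Spearman's rho 0.986). How often other pairs of genes keep their sign was not counted. DDX17 stood below DDX5 with a log2 ratio of -0.87 ± 0.0403, which is 1.83-fold. DDX39A stood below DDX39B (-0.34 ± 0.0879), and DDX50 below its neighbour DDX21 (-0.21 ± 0.0210). Those 2 differences were small, 1.26-fold and 1.15-fold, although the values of the paired genes did not overlap. The adjacent paralogues DDX19A and DDX19B differed 3.49-fold (1.80 ± 0.0178), and DDX60L stood 3.54-fold above DDX60 (1.82 ± 0.0716). With a pseudocount of 1 in place of 0.1 these log2 ratios were 1.67 and 1.47, since a pseudocount weighs more on low genes. DDX60 and DDX60L, like DDX19A and DDX19B, were counted as close copies, so the split of reads within both pairs is uncertain. DHX57 against DHX36 was the least even ratio, -0.56 in library a and -0.31 in library b. DHX8 stood 1.76-fold above DHX38 (0.82 ± 0.0224). A further ratio, DDX12P over DDX11, could not be formed because the pseudogene DDX12P had no value.

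**Figure D3:**
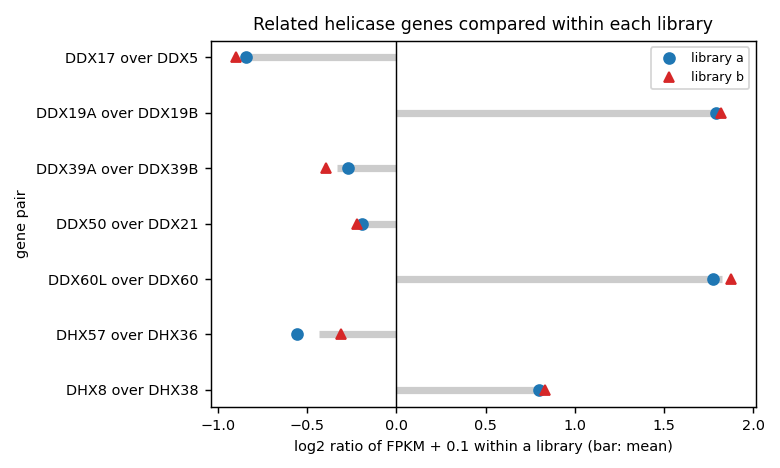
Log2 ratio of FPKM + 0.1 for 7 pairs of related helicase genes, within library a (circles) and library b (triangles), with the mean as a grey bar from 0. Each pair keeps its sign in both libraries, and DDX19A over DDX19B and DDX60L over DDX60 lie farthest from 0, at means of 1.80 and 1.82.

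Helicases of the same superfamily with other names had a similar median and reached both higher and lower levels. Of 14 such genes 13 had values, with a median of 17.2 FPKM, and 8 lay above the median of all genes. The translation helicase genes EIF4A2 (439 and 453 FPKM) and EIF4A1 (218 and 228 FPKM) exceeded DDX5 in both libraries. EIF4A3, the helicase of the exon junction complex, had 37.5 ± 4.33 FPKM, and IFIH1 was lowest, just below DDX60 in each library.

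Proteins that activate or recruit the helicases were also transcribed. Of 44 listed partner genes 41 had values and 31 lay above the median of all genes, with a median of 19.6 FPKM. Among direct partners of helicases of export, decay, ribosome assembly, the SMN complex and the tRNA ligase, 17 of 18 had values (median 18.3 FPKM). ALYREF, the TREX adaptor that binds DDX39B, was highest at 48.5 ± 0.700 FPKM, followed by the tRNA ligase subunits RTRAF (29.2 ± 1.09 FPKM) and FAM98A (25.1 ± 0.672 FPKM), and THOC2 was lowest at 5.72 ± 0.693 FPKM. Genes of G-patch proteins, the activators of DEAH-box enzymes such as DHX15, had a lower median of 14.02 FPKM over 17 of 18 genes. SON (47.2 ± 2.31 FPKM), RBM5 (39.1 ± 0.488 FPKM) and RBM10 (32.8 ± 0.891 FPKM) were highest and NKRF lowest (7.18 ± 1.61 FPKM). Factors that work with the EIF4A helicases had a median of 34.9 FPKM over 7 of 8 genes, all above the median of all genes. EIF4G2 (118 ± 0.580 FPKM), EIF4G1 (52.1 ± 4.75 FPKM) and EIF4B (42.7 ± 0.148 FPKM) led them and EIF4H was lowest (20.0 ± 0.778 FPKM).

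Beside 2 lists of other proteins of the same machines, chosen after the values were seen, the helicases had somewhat lower medians. The ranges of the genes overlapped widely in both comparisons, which hold for these lists only. Spliceosomal helicases had a median of 23.9 FPKM, against 30.96 FPKM for 26 other splicing proteins, a log2 ratio of -0.35 in library a and -0.39 in library b. SNRPB (76.8 ± 1.32 FPKM), U2AF1 (71.1 ± 1.14 FPKM) and U2AF2 (65.2 ± 2.11 FPKM) were the highest of those proteins and SF3A2 the lowest (8.14 ± 1.00 FPKM). Ribosome biogenesis helicases had a median of 15.7 FPKM, against 19.9 FPKM for 25 other assembly factors, a log2 ratio of -0.35 in library a and -0.33 in library b. NCL (110 ± 16.7 FPKM), NOP56 (82.7 ± 2.45 FPKM) and UTP3 (62.2 ± 4.92 FPKM) led those factors and RRP12 was lowest (6.88 ± 0.410 FPKM).

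Between the libraries the helicase genes differed about as much as all genes did. None of the 49 differed by more than 1.5-fold, against 2.17% of all genes, and 9 (18.4%) differed by more than 1.2-fold, against 21.3% of all genes. The median factor was 1.088 for the helicases and 1.098 for all genes. Among the 11754 genes within the range of helicase levels it was 1.096, and 1.94% of them differed by more than 1.5-fold. DDX59 had the largest difference, 6.65 FPKM in library a and 8.65 FPKM in library b. DDX60 followed with a factor of 1.25, higher in library a, then DHX58 (1.24) and DDX1 (1.24), both higher in library b. After subtraction of the all-gene median 22 members lay above 0 and 27 below, with a median log2 difference of -0.02. Across the 49 genes, which share both libraries and are not independent, Spearman's rho was 0.990 and Pearson's r of log2 levels 0.992.

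**Figure D4:**
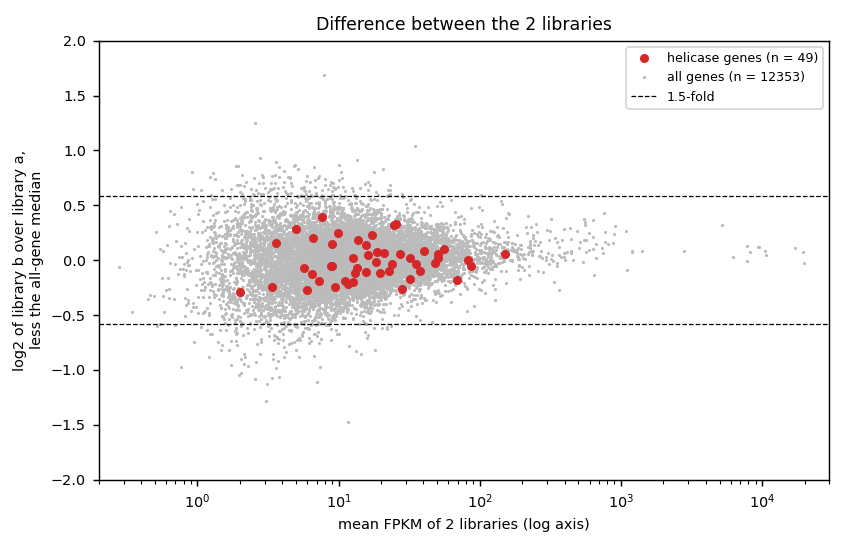
Log2 of library b over library a, less the all-gene median, against mean FPKM on a log axis, for the 49 helicase genes (red) and all 12353 genes (grey). Every red point lies within the dashed 1.5-fold lines, and the largest difference is that of DDX59.

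Promoter windows were described for 45 of the 49 members, from 250 bases before to 50 after the 5′-most start that RefSeq lists (GRCh38.p14). Whether that start is the one used in BJ cells was not tested. DDX18, DDX49, DHX33 and DHX58 have no entry in the table used. The windows held a median of 25 CpG dinucleotides and 61% G and C in the helicase genes, against 26 and 65% in 9936 genes with a value. DHX32 had the fewest CpG dinucleotides, 4, and DDX51 the most, 48.

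Short motifs were searched on both strands as exact letters, and a match is a description of the window, not evidence of binding. The ETS core CGGAAG was present in 26 of 45 helicase windows (57.8%), against 33.1% of windows of all genes. It was found in 7 of 9 spliceosomal and 9 of 12 ribosome biogenesis members. The share was lower in the other roles, with 2 of 4 coregulator and SMN genes, 2 of 4 export genes, 3 of 6 genes of translation, decay and tRNA, 1 of 2 mitochondrial genes, 2 of 5 of the remainder, 0 of 2 antiviral genes and 0 of 1 germline genes. By level, 11 of the 15 highest members held it, 9 of the 15 in the middle and 6 of the 15 lowest. Helicase genes with it had a median of 20.8 FPKM, against 11.7 FPKM for those without, and among all genes the medians were 14.3 FPKM with it and 10.7 FPKM without. The GC box GGGCGG showed the opposite difference in frequency, with 57.8% of helicase windows against 69.5% of all. The CCAAT box CCAAT was found in 44.4% against 37.0%, the E-box CACGTG in 17.8% against 9.99%, the NRF1 core GCATGCGC in 11.1% against 5.57%, the CRE TGACGTCA in 11.1% against 3.28%, and the TATA box TATAAA in 4.44% against 5.72%. The last 4 percentages rest on 8, 5, 5 and 2 helicase genes. The letters of different motifs can overlap by at most 3, in the GC box with the ETS core.

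**Figure D5:**
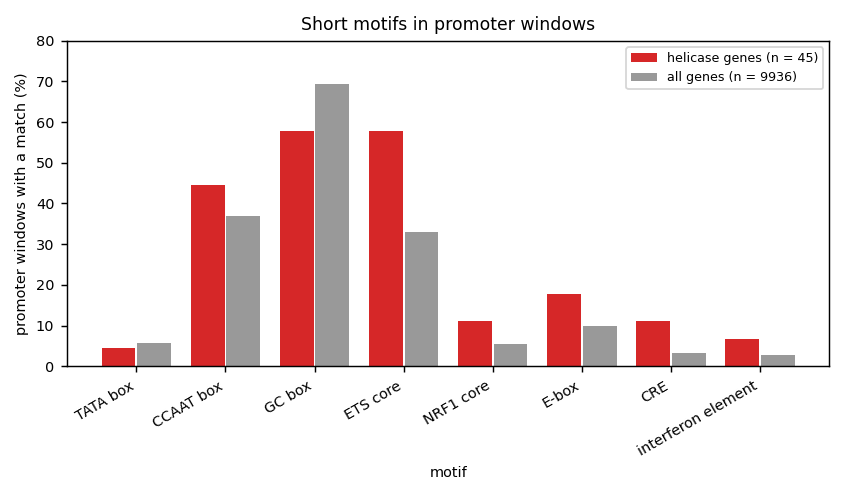
Percentage of promoter windows with at least 1 match to each short motif, in 45 helicase genes (red) and in 9936 genes with a value (grey); the bars start at 0. The ETS core shows the widest gap, 57.8% in helicase genes against 33.1% in all genes.

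The interferon-type element GAAANNGAAA occurred in 3 helicase windows (6.67%), those of DDX60, DDX60L and DHX15, against 2.77% of all windows. It came as a pair in both DDX60 and DDX60L, the antiviral members searched. The stretches of 250 bases before the start are printed for these 3 genes, and for DDX5 and DDX39B, the highest members, and DHX40, the lowest DHX member. They are read 5′ to 3′ on the strand of the gene, and capitals mark matches to any of the 8 motifs on either strand.
DDX5 (GRCh38.p14, chr17:64506639-64506888, minus strand): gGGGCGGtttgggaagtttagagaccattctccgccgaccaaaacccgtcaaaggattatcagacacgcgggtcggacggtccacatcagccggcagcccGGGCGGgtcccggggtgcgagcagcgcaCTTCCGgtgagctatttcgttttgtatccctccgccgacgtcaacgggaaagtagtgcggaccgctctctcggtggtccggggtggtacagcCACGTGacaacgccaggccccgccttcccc
DDX39B (GRCh38.p14, chr6:31542004-31542253, minus strand): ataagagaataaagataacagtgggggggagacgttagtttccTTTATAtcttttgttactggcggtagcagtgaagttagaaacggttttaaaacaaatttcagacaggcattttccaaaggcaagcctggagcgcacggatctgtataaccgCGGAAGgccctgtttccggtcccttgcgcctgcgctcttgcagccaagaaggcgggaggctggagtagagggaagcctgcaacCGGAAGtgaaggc
DHX15 (GRCh38.p14, chr4:24584555-24584804, minus strand): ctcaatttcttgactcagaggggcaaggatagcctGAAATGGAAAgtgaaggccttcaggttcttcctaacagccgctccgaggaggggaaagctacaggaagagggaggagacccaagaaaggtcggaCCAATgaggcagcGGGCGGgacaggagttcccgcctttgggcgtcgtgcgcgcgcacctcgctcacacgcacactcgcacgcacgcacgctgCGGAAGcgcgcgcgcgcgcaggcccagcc
DHX40 (GRCh38.p14, chr17:59565360-59565609, plus strand): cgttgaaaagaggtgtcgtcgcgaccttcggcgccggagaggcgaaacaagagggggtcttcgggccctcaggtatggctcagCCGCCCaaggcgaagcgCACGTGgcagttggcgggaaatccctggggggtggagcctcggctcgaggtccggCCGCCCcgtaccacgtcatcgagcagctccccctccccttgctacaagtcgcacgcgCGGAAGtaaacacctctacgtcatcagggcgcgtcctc
DDX60L (GRCh38.p14, chr4:168480493-168480742, minus strand): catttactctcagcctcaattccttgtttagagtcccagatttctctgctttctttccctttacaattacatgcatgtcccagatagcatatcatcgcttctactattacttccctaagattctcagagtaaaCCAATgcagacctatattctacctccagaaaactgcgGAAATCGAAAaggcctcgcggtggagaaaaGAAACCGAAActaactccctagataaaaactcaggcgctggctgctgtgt
DDX60 (GRCh38.p14, chr4:168318753-168319002, minus strand): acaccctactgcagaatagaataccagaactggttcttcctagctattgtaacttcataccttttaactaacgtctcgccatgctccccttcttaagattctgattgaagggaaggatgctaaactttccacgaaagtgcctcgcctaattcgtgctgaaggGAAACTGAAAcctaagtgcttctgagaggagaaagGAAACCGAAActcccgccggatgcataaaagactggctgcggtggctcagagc
In DDX60 the pair lies 88 to 79 and 53 to 44 bases before the start, and in DDX60L 80 to 71 and 50 to 41 bases before it, so the elements are similarly placed in these neighbouring genes. The single element of DHX15 lies farther out, 215 to 206 bases before the start. DDX39B also holds a match to the letters of the TATA box, on the opposite strand and 207 to 202 bases before the start. The DDX60 and DDX60L stretches hold no GC box or ETS core and have 9 and 7 CpG dinucleotides. DDX5 and DDX39B hold ETS cores, 122 to 117 bases before the start in DDX5 and at 96 to 91 and 13 to 8 in DDX39B, but so does DHX40, at 38 to 33, although its level was 4.99 FPKM.

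Some helicase genes share their upstream region with a gene that runs the other way. A protein-coding gene started on the opposite strand within 1000 bases upstream in 12 of the 45 members with a promoter entry (26.7%), against 16.6% of 9889 coding genes counted alike. For 11 of the 12 both genes had values, and the helicase was higher in 8 and its partner in 3. DDX24 (19.5 ± 1.27 FPKM) exceeded IFI27L1 (6.71 ± 0.636 FPKM) 2.91-fold, DDX51 exceeded NOC4L (5.91 ± 0.587 FPKM) 2.66-fold, DDX5 exceeded CEP95 2.31-fold and DDX28 exceeded DUS2 (4.65 ± 1.22 FPKM) 2.05-fold. The other helicases above their partners were DDX42 over CCDC47 (29.1 ± 0.262 FPKM), DDX27 over STAU1 (15.04 ± 0.255 FPKM), DHX38 over TXNL4B, and DDX54 over RITA1, whose mean (12.7 FPKM) lay between the values of RITA1 (14.5 FPKM in library a and 10.2 FPKM in library b). DDX20, DDX31 and DHX29 stood below INKA2 (16.7 ± 1.13 FPKM), GTF3C4 (14.7 ± 0.0212 FPKM) and the RNA helicase gene MTREX (11.2 ± 0.615 FPKM). These pairs therefore included both balanced and uneven neighbours. DDX5 also overlaps CEP95, and DHX38 overlaps TXNL4B. No source used here says whether reads were assigned by strand, so reads may be shared within those pairs.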

How the data were processed

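The authors deposited 1 table of FPKM values with a column for each of 2 GRO-seq libraries. Bowtie2, HTSeq and the build hg19 are named without versions in the submitters' processing notes. No source used here gives gene lengths, strand use, the handling of reads with several matches or the depth: ratios between the columns of 3328 genes over FPKM 20 showed no single value from which relative depth could be read. Values were used as deposited. Identifiers were paired with symbols through an Ensembl name table (12202 of 12353). Levels are log2(FPKM + 0.1), with no filter on low values. RefSeq on GRCh38 gave gene class, overlaps and neighbours, but no length or coordinate of it was set beside the hg19 values. Protein sequences were not used here. Scripts ran in Python 3.11.15 with pandas 2.3.3, numpy 2.4.6, scipy 1.17.1 and matplotlib 3.10.9, and the list summaries were checked on simulated data. The members, roles and lists were chosen with earlier results of these data known, and the 2 lists of other splicing and ribosome assembly proteins after the values were seen. Every member is named, and of each partner or relative list the 3 highest genes and the lowest.

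With 1 group of 2 libraries an exact sign-flip permutation test cannot go below p = 0.5, so no test was run. Alternatives were another pseudocount (1), a minimum mean FPKM of 1, quantile normalization, list means, another background and each library alone. Leaving out members with overlapping genes or close copies was added after seeing the data.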

Additional observations from a re-analysis of the deposited data

How the results depend on the processing

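No alternative turned a direction round. Of 104 alternative values 87 moved by less than a set spread and 17 moved further. That spread was the SD between libraries or, for counts, 1.5 times. For the median difference between the libraries it was instead the SD over the 49 genes, 0.171. There quantile normalization gave -0.046, against -0.023. Some of the 87 could not have moved. For the ratios, a library alone always lies within the SD between libraries of the mean. A minimum of 1 FPKM could not change the number of members, as the lowest had 1.99 FPKM. The count of 87 is therefore a weak measure of stability. The log2 difference between the helicase median and that of all genes was 0.46, and came to 0.51 with list means, 0.33 without the 9 members that overlap a measured gene and 0.51 without the 9 members that have close copies. With each library alone it ranged between 0.44 and 0.48. A pseudocount of 1 gave log2 differences from all genes of 0.97 for spliceosomal helicases, 2.37 for coregulators and -1.46 for the 1 germline gene, against 1.02, 2.45 and -1.67. It also gave log2 ratios of 1.67 for DDX19A over DDX19B, 1.47 for DDX60L over DDX60 and 0.78 for DHX8 over DHX38, against 1.80, 1.82 and 0.82. List means gave 0.90 for spliceosomal, 1.35 for export, 0.32 for ribosome biogenesis and 2.14 for coregulator helicases, against 1.02, 1.76, 0.42 and 2.45 with medians. Quantile normalization gave 2.454 for the coregulators. With each library alone ribosome biogenesis helicases ranged between 0.44 and 0.48 and coregulators between 2.4506 and 2.4508. The number of members above the median of all genes was 32 in library b and 34 in library a. No paired analysis was possible because the study has 1 group. The unknown depth limits how closely low genes such as DDX60 and DDX10 are known, and the unknown lengths and strand use limit comparisons between genes.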
